A study of Arabidopsis thaliana with 4 samples.

Results

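The roots labelled arf10/arf16 were sequenced with and without aluminium (Al), and these 2 libraries, of 4 in the series, are described here across all loci. They came from Arabidopsis thaliana seedlings labelled as an arf10/arf16 double mutant in the Col-0 background, kept for 24 h with 10 µM AlCl3 or with 0 µM AlCl3. Wild-type Col-0 seedlings treated with 10 µM or 0 µM AlCl3 gave the other 2 libraries, and their values are set beside those of the labelled line. In all groups the seedlings were 6 d old, were raised at 22 °C with 16 h of light and 8 h of dark in 2% MGRL nutrient solution at pH 5.0, and the roots of about 500 of them were pooled. Which mutant alleles were combined is not stated by the labels. With 1 library a group, no difference between groups has a replicate check and none was tested.

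Dissolved aluminium in acid soil is toxic to plants, arresting the root and settling in the walls and plasma membranes of its cells. Arabidopsis roots release malate, which binds the metal, through the channel ALMT1, whose gene is switched on by the zinc finger protein STOP1. ARF10 and ARF16 are auxin response factors that act as repressors of transcription, are targets of a microRNA, and are known for their part in root cap formation.

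The targeted genes were examined first. ARF10 had 2640 reads with Al and 3820 without in the line labelled arf10/arf16, against 142 and 110 reads in wild type with and without Al. The libraries labelled as its mutant therefore held the most ARF10 reads, 1269 and 1745 CPM (counts scaled to a common library total) against 62.3 and 49.3 CPM in wild type. ARF16 had 41 reads with Al and 71 without in the labelled line, against 75 and 159 reads in wild type with and without Al. Read counts per locus do not show which part of a transcript was read. Every statement below is therefore about the libraries labelled arf10/arf16, not about plants without ARF10.

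The 2 libraries held 2080348 reads with Al and 2188782 without, and the wild-type libraries 2280894 with Al and 2232186 without. Of 22284 loci with a read in any library, 13067 had at least 20 reads summed over the pair and were compared, and they held 98.8% and 98.8% of the reads with and without Al. Loci with several annotated transcript models tended to hold few reads, the median over the pair being 63 reads at 1 RefSeq model, 25 at 2, 15 at 3 and 8.5 at 4 or more. A locus near 0 reads is therefore not shown to be silent. Root markers were present, with SCR at 132 reads with Al and 164 without and SHR at 100 reads with Al and 111 without. Shoot markers were lower as a list, taking 0.00495% of reads with Al and 0.00813% without, against 0.0327% and 0.0701% for root markers. Of 10 listed shoot markers 3 reached the filter, against 8 of 12 root markers. CAB1, a chlorophyll-binding protein, had 26 reads with Al and 53 without, and GAPA, a chloroplast dehydrogenase, 19 with Al and 19 without. RBCS1A, the small subunit of Rubisco, had 6 reads with Al and 8 without.

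A ratio below is the share of reads with Al divided by the share without Al. A locus is called higher or lower where the ratio is at least 2-fold and its exact 95% counting interval, given in parentheses after a fold, excludes 1. For a fold lower, the fold and its interval are turned over, so both read as how many times lower. These intervals reflect counting error only and hold nothing of the variation from plant to plant. By this rule 1339 loci (10.2%) were higher and 1523 (11.7%) were lower with Al in the line labelled arf10/arf16, 21.9% in either direction. In wild type the rule found 1805 of 13532 loci higher (13.3%) and 1953 lower (14.4%), 27.8% in either direction. The median log2 ratio of all loci compared was -0.08 in the labelled line and -0.09 in wild type. The called loci JAZ3, JAZ6, PHO1, TT4, GL3 and PYK10 lay so near 2-fold that TMM or DESeq2 scaling put them under it. LAX3 fell under it with TMM only, and RPN1A with a total that leaves out the 20 loci with most reads. In whole roots, fewer cells of a type and less RNA per cell cannot be told apart.

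**Figure D1:**
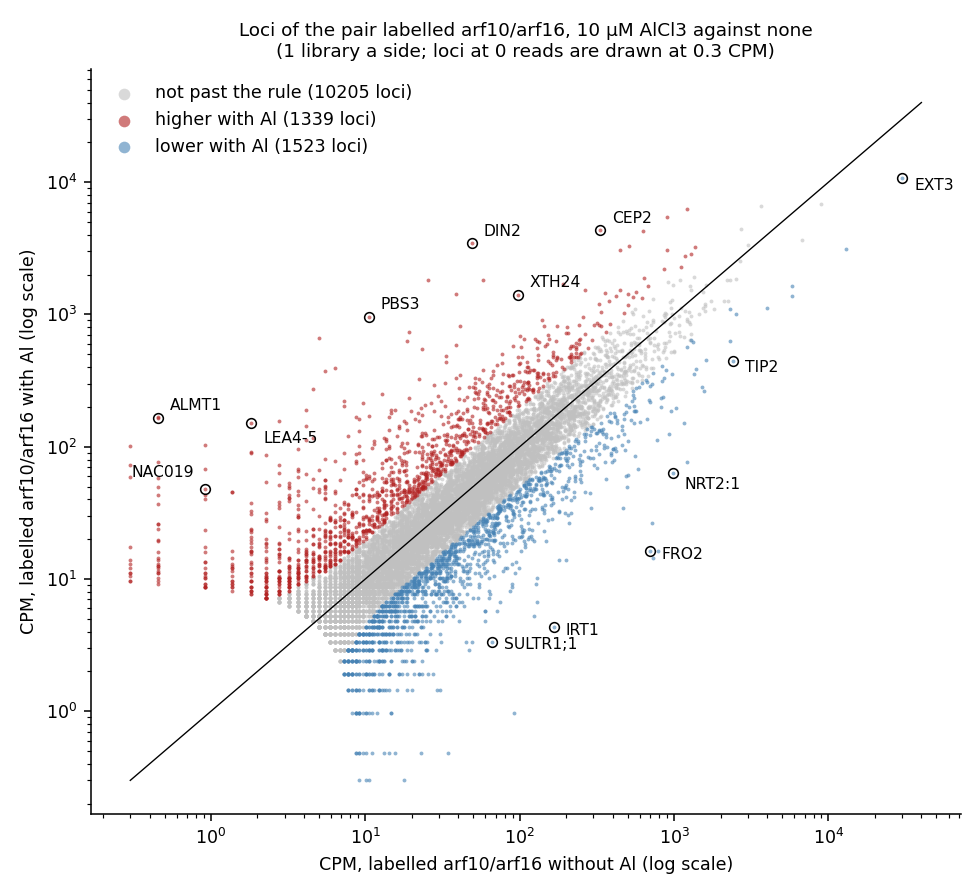
Each point is 1 of the 13067 loci compared, at its CPM with Al (vertical) and without Al (horizontal) in the line labelled arf10/arf16, both on log scales, with the line of equal CPM in black. The 1339 loci called higher lie above the band of grey points and the 1523 called lower lie below it, with ALMT1 and LEA4-5 far above the line and FRO2, IRT1 and SULTR1;1 far below it.

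Many differences were large. At least 8-fold differences past the rule were seen for 198 higher and 98 lower loci, and 16 loci had reads in 1 library of the pair only, 12 of them with Al and 4 without. Among named loci with at least 100 reads over the pair, the 12 highest ratios belonged to ALMT1, DREB19, TET9, PBS3, LEA4-5, DIN2, CEP1, NAC019, PRX52, ZAT7, PUB54 and DSEL, from 359.8-fold higher to 38.1-fold higher. The 12 lowest belonged to FRO5, FRO2, IRT1, FRO4, COPT2, SULTR1;1, NRT2:1, GLR2.3, CYP82C4, FRU, PIP2;4 and GSTF14, from 50.4-fold lower to 9.95-fold lower. Most of these 12 lowest are known for mineral uptake, as reductases of the FRO family or as transporters of iron, copper, sulfate and nitrate. The zinc finger factor ZAT7 had 123 reads with Al and 0 without, at least 43.1-fold higher, where the bound sets the library at 0 to 3 counts. DREB19, a factor of the DREB group, had 158 reads with Al and 1 without, 166-fold higher (29.4 to 6607), and the tetraspanin TET9 had 120 reads with Al and 1 without, 126-fold higher (22.2 to 5028). The ubiquitin ligase PUB54 had 1543 reads with Al and 42 without, 38.7-fold higher (28.5 to 53.9), and the copper transporter COPT2 11 reads with Al and 271 without, 23.4-fold lower (12.9 to 47.5). All 12 loci at the top and all 12 at the bottom lay on the same side in wild type.

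Genes of Al tolerance were mostly higher with Al. Of 18 listed loci, 14 were compared, 9 were higher, none was lower and the median log2 ratio was 1.78. In wild type 9 of 15 were higher, with a median of 2.14. ALMT1 had 342 reads with Al and 1 without, 359.8-fold higher (64.2 to 14253), and 819 and 8 reads in wild type with and without Al. The wild-type library with Al thus held the most ALMT1 reads of the 4, and the labelled line without Al the fewest. TDT, the vacuolar dicarboxylate transporter, had 458 reads with Al and 68 without, 7.09-fold higher (5.48 to 9.28), against 506 and 86 in wild type. WRKY46, a transcription factor known to repress ALMT1, had 691 reads with Al and 143 without, 5.08-fold higher (4.24 to 6.13), against 343 and 50 in wild type. The glutamate dehydrogenases GDH1 and GDH2 were 5.53-fold higher and 3.01-fold higher, and the polygalacturonase inhibitor PGIP1 was 4.83-fold higher. ALS3, a membrane protein named for the Al sensitivity of its mutant, had 20 reads with Al and 6 without, 3.51-fold higher (1.36 to 10.7), against 20 and 20 in wild type. AT5G01720, an RNI-like superfamily protein by its annotation, had 390 reads with Al and 61 without, and AT5G27920, an F-box family protein, 403 reads with Al and 126 without.

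Other tolerance loci did not pass the rule or were scarcely read. CIPK23, a protein kinase, had 662 reads with Al and 422 without, 1.65-fold higher (1.46 to 1.87). The vacuolar half-size transporter ABCB27 had 269 reads with Al and 213 without, 1.33-fold higher (1.11 to 1.6). ABCI17, an ABC transporter subunit, was the only compared member with a ratio below 1, at 37 reads with Al and 69 without. STOP1, which has 3 RefSeq models, had 3 reads with Al and 0 without, and the MATE efflux family locus AT1G51340 had 10 reads with Al and 0 without, so neither reached the filter.

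The promoter of ALMT1 is shown because this locus had the highest ratio of all named loci. Promoters here are the 250 bases before the RefSeq gene start of TAIR10.1, written 5′ to 3′ on the strand of the gene.
ALMT1 promoter, chr1:2658352-2658601, plus strand: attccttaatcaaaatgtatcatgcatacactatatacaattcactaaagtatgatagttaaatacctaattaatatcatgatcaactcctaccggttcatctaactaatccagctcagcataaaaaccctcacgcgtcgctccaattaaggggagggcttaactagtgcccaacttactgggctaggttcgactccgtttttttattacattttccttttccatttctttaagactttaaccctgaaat
Matches to ACGTG, the core of the abscisic acid response element, and to TGGGCC, the site II motif, would be in capitals, and neither was found on either strand, so all letters are in lower case.

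Iron uptake genes were mostly lower with Al. Of 29 listed loci 14 were compared, of which 8 were lower and 1 higher, and the log2 ratios had a median of -2.54. In wild type 11 of 16 were lower and 1 higher, with a median of -3.46. FRU, the bHLH factor that switches on iron uptake, had 29 reads with Al and 392 without, 12.8-fold lower (8.8 to 19.4), against 36 and 539 in wild type. IRT1, the iron transporter of the root surface, had 9 reads with Al and 365 without, 38.5-fold lower (20.1 to 85), against 9 and 547 in wild type. FRO2, the reductase that supplies IRT1 with ferrous iron, had 34 reads with Al and 1529 without, 42.7-fold lower (30.5 to 62), against 32 and 3276 in wild type. All 3 were low in both libraries with Al and high in both without. FRO4 and FRO5, further reductases of the FRO family, had 55 reads with Al and 1564 without, and 30 reads with Al and 1590 without. These copies are nearly identical and can share reads, so their separate values are uncertain. Both are counted in the iron uptake list, although read counts do not show which metal they reduce. CYP82C4, a hydroxylase of the secreted coumarins, had 7 reads with Al and 98 without, 13.3-fold lower (6.22 to 34). The 2-oxoglutarate-dependent oxygenase locus AT3G12900 had 0 reads with Al and 39 without, at least 12.4-fold lower.

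Some loci of iron handling were higher or did not pass the rule. OPT3, which loads iron into the phloem, had 72 reads with Al and 29 without, 2.61-fold higher (1.68 to 4.17), the only called increase of the list, against 86 and 37 in wild type. The proton pump HA2 had 400 reads with Al and 327 without, 1.29-fold higher (1.11 to 1.49), and the coumarin exporter ABCG37 1110 reads with Al and 1001 without, 1.17-fold higher (1.07 to 1.27). Among 9 loci of iron storage and chelation, 3 were lower and none higher. These were the nicotianamine synthases NAS1, at 9 reads with Al and 39 without, and NAS4, at 10 reads with Al and 25 without, and AT1G76800, a vacuolar iron transporter family locus, at 7 reads with Al and 23 without. Ferritin FER1, the iron store of plastids, had 299 reads with Al and 332 without, 1.06-fold lower (0.90 to 1.24), against 434 and 675 in wild type.

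Several nitrogen genes were lower, among them transporters and regulators. Of 21 nitrate and ammonium loci compared, 10 were lower and 2 higher, with a median log2 ratio of -0.31, and in wild type 8 of 19 were lower and 1 higher. The high-affinity nitrate transporter NRT2:1 had 131 reads with Al and 2143 without, 15.5-fold lower (13 to 18.7), against 93 and 2236 in wild type. Its partner protein WR3 had 19 reads with Al and 65 without, 3.25-fold lower (1.93 to 5.74), against 19 and 59 in wild type. NRT1.5, which loads nitrate into the xylem, had 468 reads with Al and 1514 without, 3.07-fold lower (2.77 to 3.42), against 382 and 2317 in wild type. The ammonium transporters AMT1;2 and AMT1;3 were 5.7-fold lower and 5.59-fold lower, whereas AMT1;1 had 125 reads with Al and 159 without, 1.21-fold lower (0.95 to 1.54). LBD37, LBD38 and LBD39, repressors of nitrogen-responsive genes, were 2.83-fold lower, 2.51-fold lower and 3.8-fold lower, and the nitrite reductase NIR1 was 2.44-fold lower. Of the nitrate reductases, NIA1 had 3183 reads with Al and 970 without, 3.45-fold higher (3.21 to 3.71), and NIA2 2108 reads with Al and 1946 without, 1.14-fold higher (1.07 to 1.21). The nitrate transceptor NRT1.1 had 538 reads with Al and 596 without, 1.05-fold lower (0.935 to 1.19), and the low-affinity nitrate transporter NRT1:2 had 813 reads with Al and 613 without, 1.4-fold higher (1.25 to 1.55).

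Of 10 sulfur loci compared, 3 were higher (30%) and 2 lower (20%), against 10.2% and 11.7% over all loci. The high-affinity sulfate importers SULTR1;1 and SULTR1;2 had 7 reads with Al and 145 without, and 11 reads with Al and 43 without, 19.7-fold lower and 3.72-fold lower, and in wild type they had 1 and 163, and 4 and 26 reads with and without Al. SULTR4;1, which releases sulfate from the vacuole, had 260 reads with Al and 105 without, 2.61-fold higher (2.07 to 3.3), LSU2, a sulfur-deficiency protein, had 29 reads with Al and 9 without, and AT1G04770, annotated as a tetratricopeptide repeat-like protein, had 49 reads with Al and 17 without. These 3 were called higher, against 209 and 140, 54 and 39, and 37 and 35 reads in wild type, where none of the sulfur list was called higher. Of 23 phosphate loci, 3 were higher (13%) and 2 lower (8.7%), shares near the 10.2% and 11.7% over all loci. The phosphate importer PHT1;1 had 259 reads with Al and 2037 without, 7.48-fold lower (6.57 to 8.54), and the xylem loader PHO1 592 reads with Al and 1292 without, 2.07-fold lower (1.88 to 2.29). SPX3, a phosphate sensor protein, had 718 reads with Al and 187 without, 4.04-fold higher (3.43 to 4.77), and the ribonuclease RNS1 66 reads with Al and 5 without, 13.9-fold higher (5.66 to 44.2). MGDC, a galactolipid synthase, had 19 reads with Al and 8 without, 2.5-fold higher (1.04 to 6.6). The other 18 of 23 phosphate loci did not pass the rule, among them SQD2, a sulfolipid synthase, at 1811 reads with Al and 1604 without, and SPX1 at 1707 reads with Al and 1221 without.

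**Figure D2:**
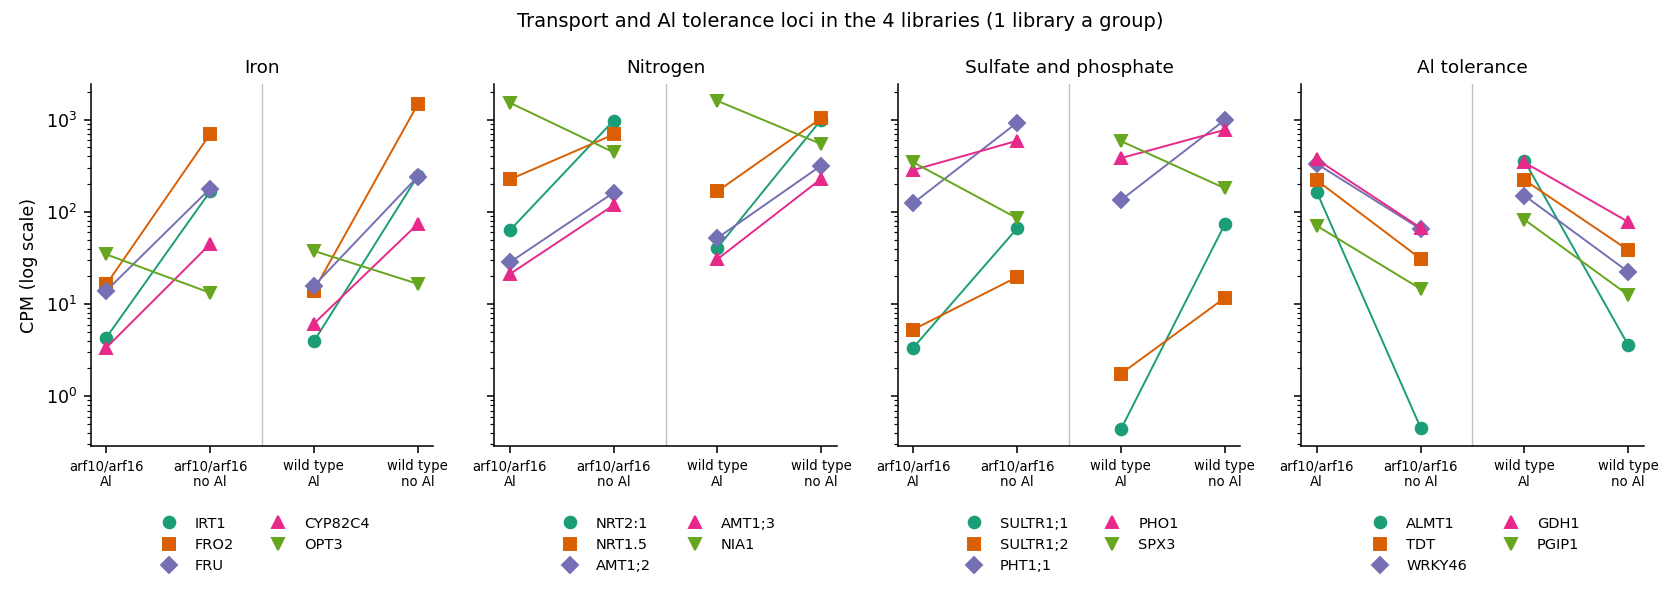
The CPM of 20 loci of iron, nitrogen, sulfate and phosphate transport and of Al tolerance is drawn on a log scale in the 4 libraries, with Al left of no Al within each genotype and a line joining the pair. IRT1, FRO2, NRT2:1, SULTR1;1 and PHT1;1 are low with Al and high without in both genotypes, and the Al tolerance loci, OPT3, NIA1 and SPX3 lie the other way round.

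Many genes that break down cell constituents were higher with Al. Of 16 sugar starvation loci compared 7 were higher and none lower, with a median log2 ratio of 0.64. DIN2, a beta-glucosidase named for its induction in the dark, had 7169 reads with Al and 107 without, 70.5-fold higher (58.2 to 86.1), against 3696 and 34 in wild type, and was among the 5 loci that gained the largest share of all reads. DIN9, an isomerase of mannose phosphate, had 213 reads with Al and 48 without, 4.67-fold higher (3.4 to 6.53), and TPS11, of the trehalose phosphate synthase family, 514 reads with Al and 153 without, 3.53-fold higher (2.95 to 4.26). Not all members followed. ERD5, a proline dehydrogenase, had 2166 reads with Al and 2749 without, 1.21-fold lower (1.14 to 1.28), and TPS8 had 585 reads with Al and 588 without. Of 10 loci that break down branched-chain amino acids, 7 were higher and none lower, with a median of 1.71, and in wild type 6 of 9 were higher. The dehydrogenase subunits BCDH BETA1 and DIN4 were 8.15-fold higher and 4.76-fold higher. IVD, the isovaleryl-CoA dehydrogenase, had 493 reads with Al and 166 without, 3.12-fold higher (2.62 to 3.75), and ETFQO, which passes its electrons to the respiratory chain, 276 reads with Al and 126 without, 2.3-fold higher (1.86 to 2.87). In peroxisomal beta-oxidation 2 of 8 loci were higher (25%, against 10.2% over all loci). They were the thiolase PKT3 with 2831 reads with Al and 1186 without and the acyl-CoA synthetase LACS7 with 97 reads with Al and 42 without.

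Autophagy genes took 0.407% of all reads with Al and 0.0858% without, and in wild type 0.404% and 0.0757%. Most of these reads belonged to NBR1, the receptor that carries ubiquitinated cargo into autophagosomes, with 6859 reads with Al and 1113 without, 6.48-fold higher (6.08 to 6.91), against 7477 and 836 in wild type. Of 17 autophagy loci compared 7 were higher and none lower, with a median of 0.88. The membrane protein APG9 had 467 reads with Al and 147 without, 3.34-fold higher (2.77 to 4.05), and AT3G18770, annotated as an autophagy-related protein, 124 reads with Al and 23 without, 5.67-fold higher (3.61 to 9.28). Of the ubiquitin-like ATG8 proteins, ATG8C, ATG8D and APG8H were called higher, at 2.06, 6.66 and 2.35-fold higher, while ATG8H had 238 reads with Al and 136 without, 1.84-fold higher (1.49 to 2.29).

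Most genes of programmed cell death and senescence, many of them proteases and nucleases, were higher. Of 15 loci compared 9 were higher and none lower, with a median log2 ratio of 1.89, and together the list took 0.643% of reads with Al and 0.0804% without. The cysteine proteinase CEP2 had 8976 reads with Al and 730 without, 12.9-fold higher (12 to 14), and its relative CEP1 772 reads with Al and 12 without, 67.7-fold higher (38.5 to 132), against 9398 and 628, and 777 and 14 in wild type. The nuclease BFN1 had 362 reads with Al and 51 without, 7.47-fold higher (5.56 to 10.2), and NAC6, a NAC factor of leaf senescence, 397 reads with Al and 34 without, 12.3-fold higher (8.65 to 18). The root cap factors of this list did not pass the rule in the labelled line, although the counts were small. NAC070 had 20 reads with Al and 27 without, 1.28-fold lower (0.693 to 2.41), against 9 and 43 in wild type, and NAC015 had 11 reads with Al and 15 without, against 7 and 23 in wild type. FEZ had 8 reads with Al and 14 without, against 5 and 27 in wild type. All 3, with the xylem proteases XCP1 and XCP2, were the 5 loci called lower in wild type, and whether the genotypes differ was not tested.

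**Figure D3:**
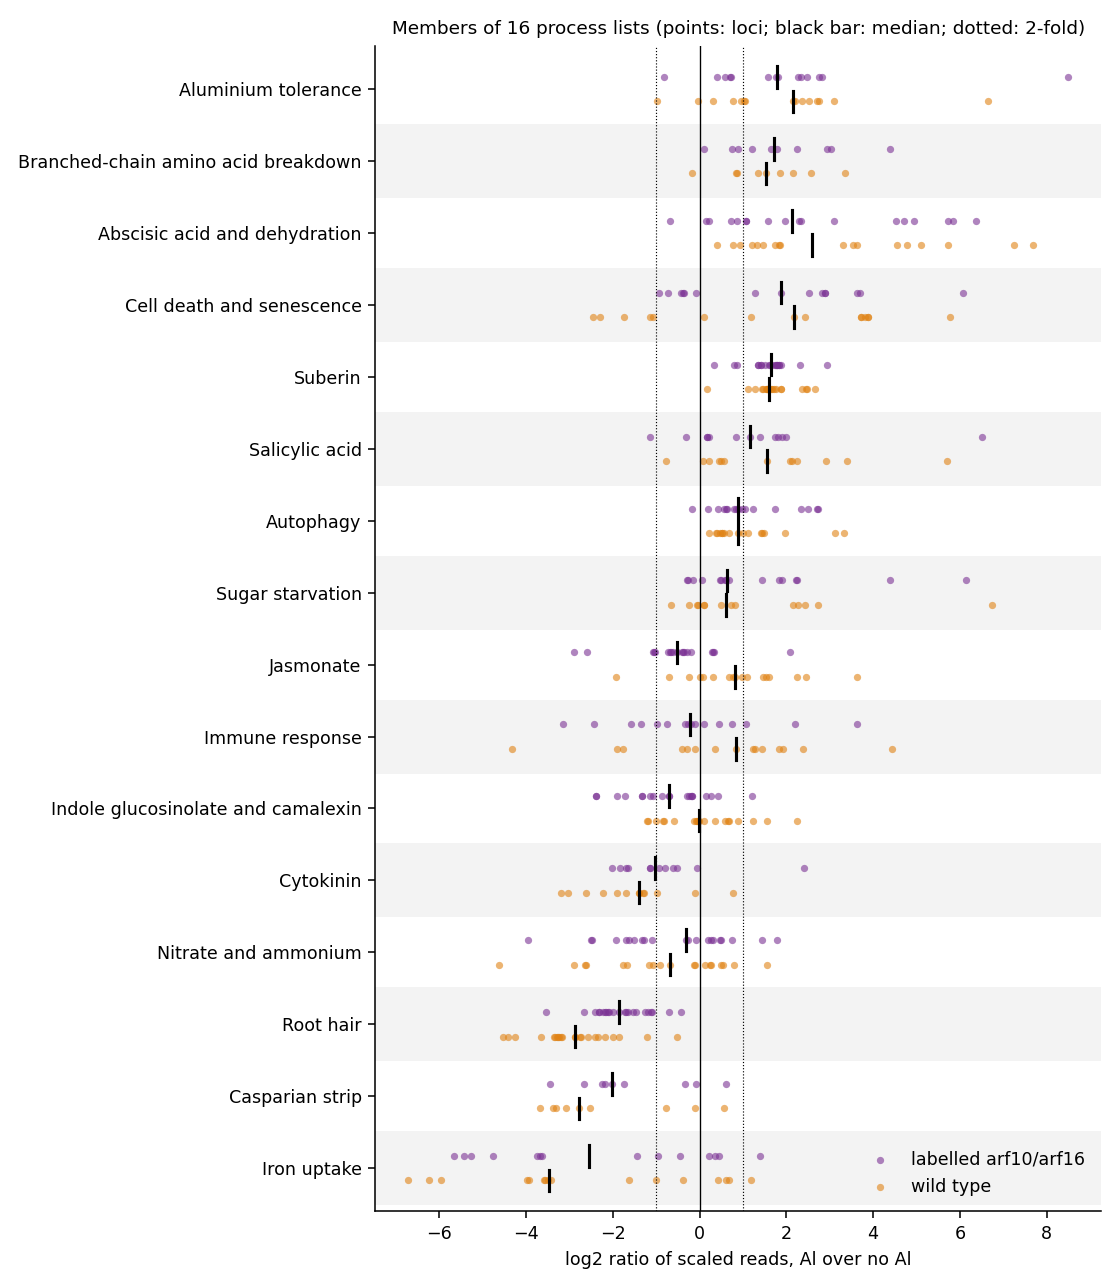
Log2 ratios of the members of 16 process lists, Al over no Al, with the line labelled arf10/arf16 above wild type in each band, the median as a black bar and 2-fold as dotted lines. Suberin, abscisic acid, cell death and Al tolerance members lie mostly right of 0, root hair, Casparian strip and iron uptake members lie mostly left of it, and the medians of the jasmonate and immune lists lie on opposite sides of 0 in the 2 pairs.

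Barrier genes of the endodermis divided by layer. The Casparian strip is a lignin band between endodermal cells, and suberin is a waxy polyester laid over their surface. Of 9 Casparian strip loci 6 were lower and none higher, with a median log2 ratio of -2.02, against -2.77 in wild type. CASP1, a scaffold protein of the strip, had 101 reads with Al and 432 without, 4.07-fold lower (3.27 to 5.1), against 62 and 628 in wild type, and CASP2 was 4.73-fold lower. The peroxidase PER64 of the strip had 89 reads with Al and 314 without, 3.35-fold lower (2.64 to 4.29). MYB36, the factor that switches on CASP genes, had 111 reads with Al and 123 without, 1.05-fold lower (0.808 to 1.37). Suberin genes ran the other way, with 17 of 20 higher, none lower and a median of 1.65, against 20 of 21 higher and a median of 1.6 in wild type. CYP86A1, which makes omega-hydroxy fatty acids, had 1342 reads with Al and 532 without, 2.65-fold higher (2.4 to 2.94), and the acyltransferase GPAT5 504 reads with Al and 208 without, 2.55-fold higher (2.16 to 3.01). The suberin exporters ABCG2, ABCG6 and ABCG20 were 3.04-fold higher, 3.65-fold higher and 3.56-fold higher. Among the transcription factors of suberin, MYB53 had 71 reads with Al and 15 without, 4.98-fold higher (2.83 to 9.36), MYB107 89 reads with Al and 27 without, 3.47-fold higher (2.23 to 5.55), and MYB92 225 reads with Al and 188 without, 1.26-fold higher (1.03 to 1.54).

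Root hair genes were lower almost without exception. Of 25 listed loci 23 were compared and 21 of them were lower, with a median log2 ratio of -1.86, against 22 of 23 and -2.86 in wild type. The bHLH factors RSL2 and LRL3, which drive hair growth, had 18 reads with Al and 120 without, and 19 reads with Al and 100 without, 6.34-fold lower and 5.0-fold lower. RHD2, the NADPH oxidase of the hair tip, had 163 reads with Al and 555 without, 3.24-fold lower (2.71 to 3.88), against 72 and 421 in wild type. The hair wall proteins PRP3 and LRX1 had 249 reads with Al and 954 without, and 230 reads with Al and 1095 without, 3.64-fold lower and 4.53-fold lower. RHD6, which acts before RSL2, had 50 reads with Al and 86 without, 1.63-fold lower (1.14 to 2.37), against 17 and 84 in wild type, and CSLD3, a cellulose synthase-like protein, 582 reads with Al and 823 without, 1.34-fold lower (1.21 to 1.5). These were the 2 compared members that did not pass the rule. Of the genes that set which epidermal cells bear hairs, GL3 had 21 reads with Al and 46 without, 2.08-fold lower (1.22 to 3.67), and CPC 12 reads with Al and 17 without, 1.35-fold lower (0.606 to 3.09).

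The promoter of RHS18, a peroxidase named for its restriction to root hairs, is shown because RHS18 had the lowest ratio of the list. It had 4 reads with Al and 49 without, 11.6-fold lower (4.27 to 44.4). The choice was limited to promoters of the list that hold ACGTG, at loci with at least 50 reads over the pair.
RHS18 promoter, chr5:7426060-7426309, plus strand: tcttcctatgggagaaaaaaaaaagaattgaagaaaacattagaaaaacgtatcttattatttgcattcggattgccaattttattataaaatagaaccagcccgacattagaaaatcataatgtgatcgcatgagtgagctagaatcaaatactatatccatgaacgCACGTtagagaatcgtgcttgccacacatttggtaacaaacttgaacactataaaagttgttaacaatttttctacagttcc
Capitals mark the match to ACGTG, which lies on the other strand, 82 to 78 bases before the start. On both strands of the 250 bases, ACGTG was found in 13 of 23 root hair promoters (56.5%), against 24.1% of the 13027 promoters of compared loci that were read. It was also found in 10 of 22 promoters of extensin and proline-rich loci (45.5%), a family that shares PRP1, PRP3, LRX1 and LRX2 with the root hair list, and in 10 of 20 of indole glucosinolate loci (50%), and the longer CACGTG in none of these 3 groups, against 7.14% of all. A match of letters is a description, not a binding site.

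Structural wall proteins held a smaller share of the reads with Al. The 26 extensin and proline-rich loci with reads took 2.76% of all reads with Al and 7.41% without, against 2.5% and 7.56% in wild type. Of 22 compared, 18 were lower and 1 higher, with a median log2 ratio of -1.83. EXT3, an extensin that forms the scaffold of new walls, had 22253 reads with Al and 65979 without, 2.82-fold lower (2.78 to 2.86), against 26669 and 79035 in wild type. It was the locus that lost most of all, 1.94 percentage points of reads. The extensin-like loci AT1G26250, AT1G23720 and AT3G28550 were also among the 5 that lost most, at 4.13-fold lower, 4.17-fold lower and 3.55-fold lower, against 2.92-fold lower, 13.7-fold lower and 10.3-fold lower in wild type. The called increase was AT1G26240, with 1800 reads with Al and 696 without, 2.72-fold higher (2.49 to 2.97). Extensin genes hold long repeats and can share reads, so the split between them is uncertain. Among the 5 loci that gained most in share of reads were 3 other loci annotated as hydroxyproline-rich glycoproteins, AT4G38080 with 13035 reads with Al and 2648 without, PELPK1 with 11364 reads with Al and 1980 without and AT2G22510 with 8931 reads with Al and 1375 without, 5.18-fold higher, 6.04-fold higher and 6.83-fold higher.

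Wall-loosening enzymes differed from member to member. Of 19 xyloglucan endotransglucosylases, which cut and rejoin hemicellulose, 8 were lower (42.1%) and 2 higher (10.5%). Over all loci 11.7% were lower and 10.2% higher. XTH24 had 2906 reads with Al and 214 without, 14.3-fold higher (12.4 to 16.5), against 3103 and 81 in wild type, and TCH4 1740 reads with Al and 532 without, 3.44-fold higher (3.12 to 3.8). XTH12, XTH8, XTH14 and XTH15 were 3.97, 3.01, 2.88 and 2.84-fold lower. The family as a whole took 0.33% of reads with Al and 0.172% without, so its reads were more with Al although most called members were lower. Among expansins 6 of 16 were lower (37.5%) and 1 was higher (6.25%). EXPA7 and EXPA18 of root hairs were 4.66-fold lower and 4.48-fold lower, while EXLB1 had 471 reads with Al and 95 without, 5.22-fold higher (4.18 to 6.57). Of 18 cellulose synthase and related loci 6 were lower (33.3%) and 1 higher (5.56%). CESA2 had 254 reads with Al and 625 without, 2.34-fold lower (2.02 to 2.72). CESA1 had 1409 reads with Al and 2538 without, 1.71-fold lower (1.6 to 1.83). Of 41 pectin methylesterases and inhibitors 11 were lower (26.8%) and 3 higher (7.32%). PME3 had 619 reads with Al and 988 without, 1.52-fold lower (1.37 to 1.68). Arabinogalactan proteins had 18 lower (48.6%) and 7 higher (18.9%) of 37. FLA13 was 6.48-fold lower (4.13 to 10.7) and AGP21 4.05-fold higher (3.19 to 5.19). AGP30 had 112 reads with Al and 119 without, 1.01-fold lower (0.774 to 1.32), against 23 and 118 in wild type.

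Class III peroxidases, which crosslink or loosen walls with hydrogen peroxide, were called in both directions. Of 54 compared 11 were higher and 25 lower, both above the shares over all loci. PRX52 had 186 reads with Al and 4 without, 48.9-fold higher (18.8 to 181), and 334 and 0 in wild type. PRXCB had 3547 reads with Al and 417 without, 8.95-fold higher (8.08 to 9.93), and AT4G36430 1708 reads with Al and 90 without, 20-fold higher (16.1 to 25). On the lower side AT5G64100 had 549 reads with Al and 3427 without, 5.93-fold lower (5.42 to 6.5), and AT3G01190 590 reads with Al and 3317 without, 5.34-fold lower (4.89 to 5.84). The most read member, PRXR1, had 5236 reads with Al and 5854 without, 1.06-fold lower (1.02 to 1.1). Together the family took 1.46% of reads with Al and 1.54% without.

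Water channels were mostly lower. Of 20 aquaporins 12 were lower and 1 higher, and the family took 0.153% of reads with Al and 0.549% without, against 0.139% and 0.654% in wild type. The tonoplast channel TIP2 had 929 reads with Al and 5266 without, 5.39-fold lower (5.02 to 5.78), against 956 and 6253 in wild type, and the plasma membrane channel PIP2;4 17 reads with Al and 189 without, 10.6-fold lower (6.43 to 18.5), against 10 and 239 in wild type. NIP1;2, the channel of the NOD26 group known to carry Al malate into root cells, had 91 reads with Al and 40 without, 2.39-fold higher (1.63 to 3.56), against 73 and 45 in wild type. It was the one aquaporin called higher. SIP1A, a small basic channel, had 330 reads with Al and 300 without, 1.16-fold higher (0.987 to 1.36).

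**Figure D4:**
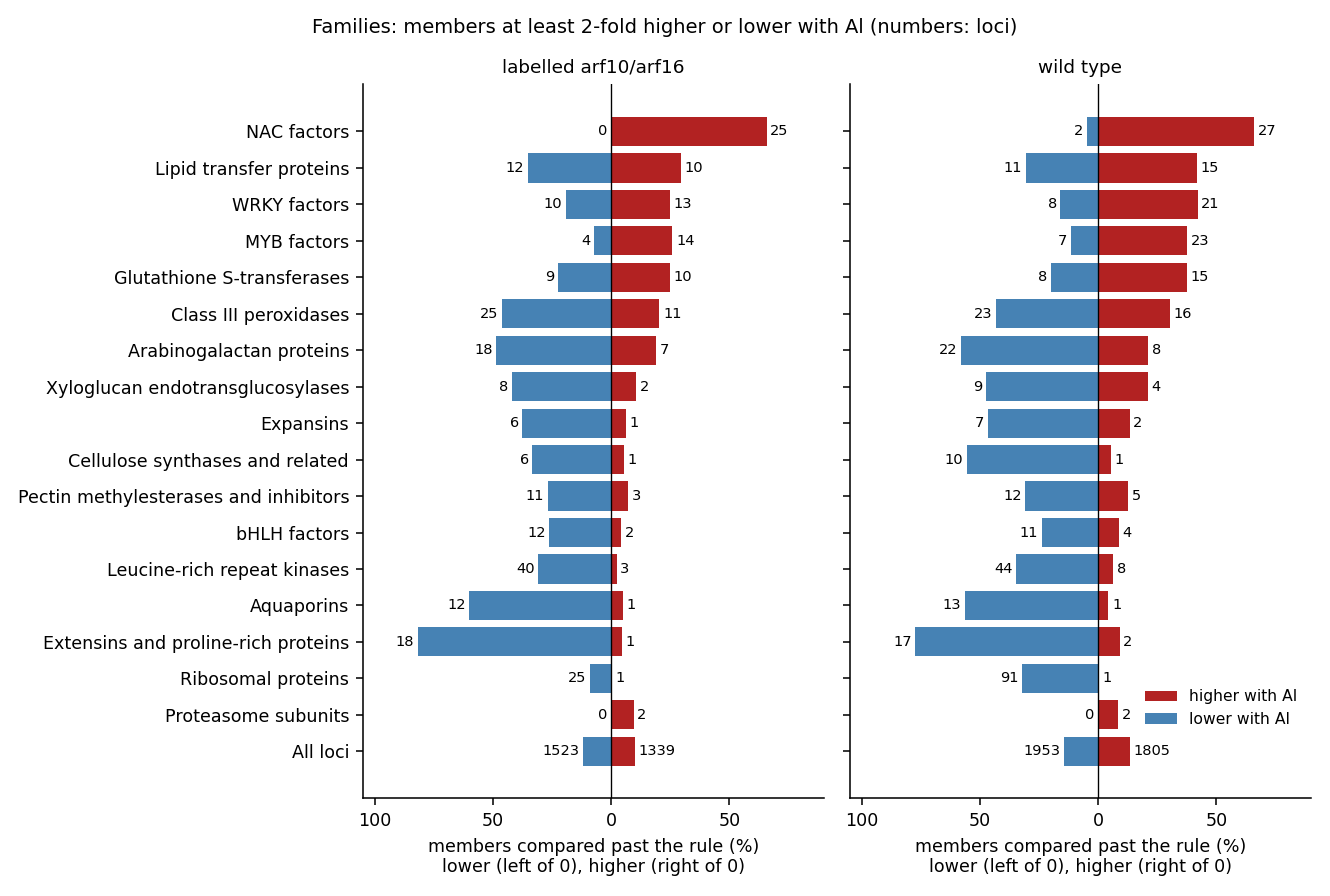
Bars give the percentage of compared members called higher (red, right of 0) and lower (blue, left of 0) with Al in 17 families and over all loci, with the number of loci at the end of each bar and the line labelled arf10/arf16 left of wild type. NAC factors stand out to the right with 25 higher and 0 lower, extensins and aquaporins to the left with 18 and 12 lower, and 25 ribosomal loci were lower in the labelled line against 91 in wild type.

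Most genes of abscisic acid and dehydration were higher with Al. Abscisic acid is the hormone of water deficit, and its receptors act by holding back PP2C phosphatases. Of 31 listed loci 18 were compared, 13 were higher and none lower, with a median log2 ratio of 2.12, against 15 of 18 and 2.58 in wild type. NCED3, which makes the precursor of abscisic acid under drought, had 157 reads with Al and 34 without, 4.86-fold higher (3.34 to 7.26), against 141 and 14 in wild type. The PP2C phosphatase HAI1 had 54 reads with Al and 1 without, 56.8-fold higher (9.77 to 2285), and ABI1 581 reads with Al and 291 without, 2.1-fold higher (1.82 to 2.43). The homeobox factors HB-12 and HB-7 (AT2G46680) had 200 reads with Al and 8 without, and 131 reads with Al and 6 without, 26.3-fold higher and 23-fold higher. The cold and dehydration proteins COR47, LTI30 and LTI78 did not pass the rule. COR47 had 6922 reads with Al and 6618 without, 1.1-fold higher (1.06 to 1.14), against 9318 and 4765 in wild type. LTI30 had 1721 reads with Al and 1558 without, 1.16-fold higher (1.08 to 1.25), against 2677 and 791 in wild type, and LTI78 had 1175 reads with Al and 675 without, 1.83-fold higher (1.66 to 2.02), against 1719 and 464. In all 3 the labelled line without Al held more reads than wild type without Al, and whether the response differs was not tested.

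LEA4-5, a late embryogenesis abundant protein that protects cells in dehydration, had 313 reads with Al and 4 without, 82.3-fold higher (31.8 to 304), against 310 and 2 in wild type. Its promoter is shown because LEA4-5 had the highest ratio of the abscisic acid list and its promoter held 4 matches to ACGTG, in capitals.
LEA4-5 promoter, chr5:2090431-2090680, minus strand: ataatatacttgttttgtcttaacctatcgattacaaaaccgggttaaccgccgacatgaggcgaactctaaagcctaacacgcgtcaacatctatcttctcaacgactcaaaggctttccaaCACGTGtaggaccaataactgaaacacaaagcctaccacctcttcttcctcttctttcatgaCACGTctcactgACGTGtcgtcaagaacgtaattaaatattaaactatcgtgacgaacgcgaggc
One pair of matches overlaps on opposite strands in CACGTG, 127 to 122 bases before the start, and the others lie 65 to 61 and 53 to 49 bases before it. ACGTG was found in 7 of 18 promoters of the list (38.9%), in 28.0% of promoters of loci called higher, in 26.8% of those called lower and in 23.2% of those not past the rule.

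Auxin conjugation genes were called higher only. Of 11 auxin transport genes 2 were lower (18.2%) and 1 higher (9.09%), against 11.7% and 10.2% over all loci. GH3 enzymes join auxin to amino acids, which removes free auxin. BRU6, a GH3 enzyme, had 606 reads with Al and 231 without, 2.76-fold higher (2.37 to 3.23), against 759 and 72 in wild type. WES1 had 574 reads with Al and 112 without, 5.39-fold higher (4.4 to 6.66), and GH3.3 80 reads with Al and 16 without, 5.26-fold higher (3.05 to 9.64). Of 8 auxin conjugation and oxidation loci 4 were higher and none lower. EIR1, the auxin efflux carrier of epidermis and root cap, had 170 reads with Al and 431 without, 2.41-fold lower (2.01 to 2.9), against 86 and 453 in wild type, and the importer LAX3 105 reads with Al and 232 without, 2.1-fold lower (1.66 to 2.67). AUX1, the importer of the root tip, had 367 reads with Al and 456 without, 1.18-fold lower (1.03 to 1.36). Among auxin response factors other than ARF10 and ARF16, MP, an activator of vascular and embryonic patterning, had 592 reads with Al and 109 without, 5.71-fold higher (4.65 to 7.08), against 673 and 86 in wild type, and ARF19 202 reads with Al and 281 without, 1.32-fold lower (1.1 to 1.59). Of 13 Aux/IAA repressors 1 was higher (7.69%) and 2 were lower (15.4%), against 10.2% and 11.7% over all loci. AXR3 had 59 reads with Al and 223 without, 3.59-fold lower (2.69 to 4.87), and IAA28 363 reads with Al and 469 without, 1.23-fold lower (1.07 to 1.41). The called increase was IAA10, at 49 reads with Al and 23 without, 2.24-fold higher (1.34 to 3.85).

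Cytokinin genes were more often lower than higher, with 6 of 12 lower, 1 higher and a median log2 ratio of -1.03, against 10 of 13 lower in wild type. ARR6 and ARR9, response regulators that rise with cytokinin, had 13 reads with Al and 49 without, and 29 reads with Al and 96 without, 3.58-fold lower and 3.15-fold lower, and the synthesis enzyme IPT5 had 30 reads with Al and 70 without, 2.22-fold lower (1.43 to 3.52). The called increase was CKX5, an enzyme that degrades cytokinin, at 20 reads with Al and 4 without. In the ethylene list 1 of 15 loci was higher (6.67%) and 2 were lower (13.3%), near the 10.2% and 11.7% over all loci. The other 12 did not pass the rule, among them EIN3, the main factor of the response, at 937 reads with Al and 931 without. EFE, which makes ethylene, had 342 reads with Al and 161 without, 2.23-fold higher (1.85 to 2.71), and AT1G77330, annotated as a 2-oxoglutarate-dependent oxygenase, 208 reads with Al and 807 without, 3.69-fold lower (3.16 to 4.32).

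Several salicylic acid genes were higher with Al. This hormone acts in defence against pathogens that feed on living cells. Of 13 compared 6 were higher and 1 lower, with a median log2 ratio of 1.16. PBS3, a GH3 family enzyme that makes the last intermediate of salicylic acid, had 1996 reads with Al and 23 without, 91.3-fold higher (60.7 to 144), against 1281 and 24 in wild type. EDS16, the isochorismate synthase that starts the pathway, had 81 reads with Al and 23 without, 3.71-fold higher (2.31 to 6.17), and the factor WRKY70 416 reads with Al and 110 without, 3.98-fold higher (3.22 to 4.96). The called decrease was DMR6, which hydroxylates salicylic acid, at 273 reads with Al and 637 without, 2.22-fold lower (1.92 to 2.56), against 249 and 418 in wild type. AT4G10500, a 2-oxoglutarate-dependent oxygenase by its annotation, was among the 6 higher. It had 109 reads with Al and 33 without, 3.48-fold higher (2.34 to 5.3), against 95 and 22 in wild type. NPR1, the receptor protein, had 308 reads with Al and 287 without, and PAD4, a lipase-like defence regulator, 880 reads with Al and 798 without.

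Jasmonate genes had a ratio below 1 for 15 of 19 loci in the labelled line, against 7152 of 13067 over all loci. Of 19 compared 1 was higher and 4 were lower (21.1%, against 11.7% over all loci), and the log2 ratios had a median of -0.52. The called decreases were AOC1, AOC2, JAZ3 and JAZ6, and JAZ3 and JAZ6 were under 2-fold with TMM or DESeq2 scaling, which leaves a share near that over all loci. In wild type 7 of 17 were higher and 1 lower, with a median of 0.82. The list took 0.161% of reads with Al and 0.225% without in the labelled line, and 0.104% and 0.0826% in wild type. Of the JAZ repressors, JAZ6 had 198 reads with Al and 436 without, 2.09-fold lower (1.77 to 2.49), against 96 and 59 in wild type, and TIFY10B 378 reads with Al and 609 without, 1.53-fold lower (1.34 to 1.75), against 203 and 93 in wild type. JAZ7 was the member called higher, at 56 reads with Al and 14 without, 4.21-fold higher (2.31 to 8.19). The lipoxygenases LOX3 and LOX4, which start jasmonate synthesis, had 57 reads with Al and 69 without, and 174 reads with Al and 222 without, against 39 and 7, and 94 and 32 in wild type. LOX3, LOX4, JAZ6 and TIFY10B each had their lowest count of the 4 libraries in wild type without Al. The allene oxide cyclase AOC1 had 15 reads with Al and 117 without, but AOC genes are similar in sequence and can share reads. Whether the response to Al differs between the genotypes was not tested, with 1 library a group.

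Several indole glucosinolate genes were lower with Al in the labelled line. These sulfur compounds are made from tryptophan and are broken down by myrosinases in defence. Of 20 loci 8 were lower and 1 higher, and the list took 0.472% of reads with Al and 1.02% without. In wild type 2 were lower and 3 higher, at 0.354% and 0.508% of reads. The labelled line without Al held the largest share of the 4 libraries. CYP81F2, which hydroxylates the indole ring, had 264 reads with Al and 694 without, 2.5-fold lower (2.17 to 2.89), against 81 and 50 in wild type. The methyltransferases IGMT1, IGMT2 and IGMT3 were 3.3-fold lower, 5.21-fold lower and 5.23-fold lower. They are close copies whose reads may be shared. PEN2 (AT2G44490), an atypical myrosinase, had 743 reads with Al and 2927 without, 3.74-fold lower (3.45 to 4.06), against 525 and 1024 in wild type, and PYK10, the beta-glucosidase of ER bodies, 2281 reads with Al and 5028 without, 2.1-fold lower (1.99 to 2.2), against 2472 and 5493. With TMM or DESeq2 scaling PYK10 was under 2-fold. PAD3, the last enzyme of camalexin synthesis, was higher, at 66 reads with Al and 30 without, 2.31-fold higher (1.48 to 3.69).

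The immune response list had 2 higher (12.5%) and 4 lower (25%) of 16, against 10.2% and 11.7% over all loci. Its median log2 ratio was -0.23. In wild type 7 of 15 were higher and 3 lower, with a median of 0.85. WRKY53 had 87 reads with Al and 494 without, 5.4-fold lower (4.29 to 6.86), against 32 and 117 in wild type, and PROPEP3, the precursor of a danger peptide, 169 reads with Al and 528 without, 2.97-fold lower (2.49 to 3.55), against 48 and 159. RBOHD, the NADPH oxidase of the immune burst, had 1222 reads with Al and 1631 without, 1.27-fold lower (1.18 to 1.37), against 920 and 371 in wild type. WRKY33 had 3809 reads with Al and 4834 without, 1.21-fold lower (1.16 to 1.26), against 2089 and 1135 in wild type. For these 4 genes the labelled line without Al had more reads than any other library. The 2 called increases were YLS9 and EXO. YLS9, of the NDR1/HIN1-like family, had 373 reads with Al and 32 without, 12.3-fold higher (8.54 to 18.2). EXO, a wall-linked growth protein that the list also holds, had 1464 reads with Al and 333 without, 4.63-fold higher (4.1 to 5.23).

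PEN3 (AT1G59870), an ABC transporter that exports defence compounds, had 7635 reads with Al and 14736 without, 1.83-fold lower (1.78 to 1.89), against 5091 and 2904 in wild type. It lost 0.31 percentage points of reads, among the 5 largest losses, without passing the rule.

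Of 130 leucine-rich repeat kinases, receptors of peptides and other signals, 40 were lower (30.8%) and 3 higher (2.31%). Over all loci 11.7% were lower and 10.2% higher. In wild type 44 of 127 were lower and 8 higher. AT5G59680 had 126 reads with Al and 1095 without, 8.26-fold lower (6.86 to 10), and AT5G37450 21 reads with Al and 282 without, 12.8-fold lower (8.19 to 20.9). AT1G51830 was higher, at 1191 reads with Al and 482 without, 2.6-fold higher (2.34 to 2.9). Cysteine-rich receptor kinases were split, 4 higher (26.7%) and 5 lower (33.3%) of 15. CRK36 had 63 reads with Al and 8 without, 8.29-fold higher (3.96 to 20), and CRK29 181 reads with Al and 539 without, 2.83-fold lower (2.39 to 3.37). CRK11 had 702 reads with Al and 453 without, 1.63-fold higher (1.45 to 1.84), against 542 and 32 in wild type.

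NAC factors are plant transcription factors of stress, senescence and wall formation. Of 38 NAC loci 25 were higher and none lower, with a median log2 ratio of 1.58, against 27 higher and 2 lower of 41 in wild type. NAC019, a factor of the abscisic acid and stress response, had 100 reads with Al and 2 without, 52.6-fold higher (14.2 to 440.4), and NAC3 (AT3G15500) 428 reads with Al and 53 without, 8.5-fold higher (6.38 to 11.5). NAC102 had 417 reads with Al and 367 without, 1.2-fold higher (1.04 to 1.38), against 458 and 147 in wild type. WRKY factors had 13 higher (25%) and 10 lower (19.2%) of 52, against 10.2% and 11.7% over all loci. WRKY75, a regulator of phosphate starvation and defence, had 238 reads with Al and 30 without, 8.35-fold higher (5.7 to 12.6), and WRKY30 43 reads with Al and 252 without, 5.57-fold lower (4.02 to 7.89). MYB factors had 14 higher (25.9%) and 4 lower (7.41%) of 54, and bHLH factors 2 higher (4.35%) and 12 lower (26.1%) of 46. The bHLH locus AT1G71200 had 1 read with Al and 50 without, 47.5-fold lower (8.15 to 1914), and FBH3 150 reads with Al and 40 without, 3.95-fold higher (2.77 to 5.74). Among heat shock factors 3 of 10 were higher (30%) and none lower, with HSFA1E at 90 reads with Al and 21 without, 4.51-fold higher (2.78 to 7.64).

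Detoxifying enzymes were called in both directions. Glutathione S-transferases had 10 higher (25%) and 9 lower (22.5%) of 40, against 10.2% and 11.7% over all loci. GSTU22 had 461 reads with Al and 16 without, 30.3-fold higher (18.5 to 53.5), GSTU8 1421 reads with Al and 220 without, 6.8-fold higher (5.89 to 7.87), and GSTF14 104 reads with Al and 1089 without, 9.95-fold lower (8.13 to 12.3). GSTF7 had 1083 reads with Al and 2081 without, 1.83-fold lower (1.7 to 1.97), against 985 and 385 in wild type. Cytochrome P450 loci had 26 higher (23.4%) and 22 lower (19.8%) of 111, with CYP78A8 at 519 reads with Al and 28 without, 19.5-fold higher (13.3 to 29.6). UDP-glycosyltransferases had 13 in each direction of 72 (18.1%). UGT76D1 had 398 reads with Al and 131 without, 3.2-fold higher (2.62 to 3.92), and UGT71C1 119 reads with Al and 540 without, 4.31-fold lower (3.53 to 5.31), against 38 and 800 in wild type.

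Of 14 phenylpropanoid genes 1 was higher (7.14%) and 2 were lower (14.3%), near the 10.2% and 11.7% over all loci. The other 11 did not pass the rule. C4H, the cinnamate hydroxylase, had 2089 reads with Al and 2137 without, 1.03-fold higher (0.968 to 1.09). FAH1 (AT4G36220), the ferulate hydroxylase of syringyl lignin, had 3 reads with Al and 64 without, 20.3-fold lower (6.63 to 101), against 4 and 159 in wild type, and PAL4, an ammonia-lyase that starts the pathway, 725 reads with Al and 147 without, 5.19-fold higher (4.34 to 6.24). Flavonoid genes had 3 lower (60%, against 11.7% over all loci) and none higher of 5. TT4, the chalcone synthase, had 1336 reads with Al and 2833 without, 2.02-fold lower (1.89 to 2.15), and TT7, a flavonoid hydroxylase, 37 reads with Al and 109 without, 2.8-fold lower (1.91 to 4.18).

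In organic acid metabolism NADP-ME1, a malic enzyme, had 152 reads with Al and 6 without, 26.7-fold higher (12 to 73.8), against 233 and 12 in wild type. ICL, the isocitrate lyase of the glyoxylate cycle, had 374 reads with Al and 138 without, 2.85-fold higher (2.34 to 3.49), and CSY3, a citrate synthase of peroxisomes, 611 reads with Al and 253 without, 2.54-fold higher (2.19 to 2.95). PPC3, a phosphoenolpyruvate carboxylase, had 627 reads with Al and 1170 without, 1.77-fold lower (1.61 to 1.96), against 803 and 2375 in wild type. Of 13 loci in this list 3 were higher (23.1%) and 1 was lower (7.69%), against 10.2% and 11.7% over all loci. The lower one was NADP-ME3, at 8 reads with Al and 21 without. Mitochondrial stress genes had 2 in each direction of 9 (22.2%), against 10.2% higher and 11.7% lower over all loci. The alternative oxidase AOX1A had 379 reads with Al and 187 without, 2.13-fold higher (1.79 to 2.55), the chaperone BCS1 1336 reads with Al and 640 without, 2.2-fold higher (2.0 to 2.42), and the carrier DIC2 624 reads with Al and 1576 without, 2.4-fold lower (2.19 to 2.64). Of 10 fermentation and low oxygen loci 1 was higher and 1 lower, 10% each, near the 10.2% and 11.7% over all loci. AT4G33070, a pyruvate decarboxylase by its annotation, had 171 reads with Al and 56 without, 3.21-fold higher (2.36 to 4.43). HB1, a hemoglobin, had 24 reads with Al and 57 without, 2.26-fold lower (1.38 to 3.8). ADH1, an alcohol dehydrogenase, did not pass the rule, at 66 reads with Al and 42 without, 1.65-fold higher (1.11 to 2.5).

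Ribosomal protein genes had ratios mostly below 1. The 339 ribosomal protein loci with reads took 1.98% of reads with Al and 2.91% without, against 2.13% and 4.0% in wild type. Of 275 compared 252 had a ratio below 1, while 25 were called lower, a share of 9.09% that is under the 11.7% over all loci, and the other ratios were within 2-fold or did not pass on counting. The median log2 ratio was -0.58, against -0.90 in wild type, where 91 of 284 were called lower. AT5G20290, of the S8e group, had 1775 reads with Al and 2783 without, 1.49-fold lower (1.4 to 1.58), against 1866 and 3798 in wild type. AT3G02080, of the S19e group, had 152 reads with Al and 407 without, 2.54-fold lower (2.11 to 3.09), against 240 and 385 in wild type. The one called increase was AT1G53560, annotated to the L18ae family, with 60 reads with Al and 13 without.

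Ribosomal promoters are known for site II and telo-box motifs. TGGGCC, the site II letters, was found on either strand in 132 of 275 ribosomal promoters (48.0%), against 16.1% of all 13027. AAACCCTA, the telo-box letters, was found in 43 (15.6%), against 3.49% of all, and both in 23 (8.36%), against 0.99%. The promoter of AT1G18540, of the L6 family, is shown because it had the most reads of these 23, at 742 reads with Al and 934 without, 1.2-fold lower (1.09 to 1.32).
AT1G18540 promoter, chr1:6378581-6378830, minus strand: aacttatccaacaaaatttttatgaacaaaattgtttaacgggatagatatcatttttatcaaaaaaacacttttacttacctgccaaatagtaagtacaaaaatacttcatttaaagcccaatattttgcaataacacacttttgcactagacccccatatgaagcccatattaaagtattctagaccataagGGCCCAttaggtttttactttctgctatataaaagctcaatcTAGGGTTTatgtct
Capitals mark both motifs, each on the other strand, site II 56 to 51 and the telo-box 14 to 7 bases before the start.

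Proteasome loci lay the other way, with 20 of 21 above a ratio of 1 and a median log2 ratio of 0.46, against 5915 of 13067 over all loci. The rule called 2 of them higher, 9.52%, which is near the 10.2% over all loci. RPN1A had 997 reads with Al and 522 without, 2.01-fold higher (1.81 to 2.24), and the activator PA200 1087 reads with Al and 573 without, 2.0-fold higher (1.8 to 2.21), just short of 2-fold. In protein folding in the endoplasmic reticulum 1 of 11 loci was higher (9.09%), near the 10.2% over all loci. None was lower, against 11.7% over all loci, and 10 did not pass the rule. The chaperone BIP1 had 1000 reads with Al and 1027 without, 1.02-fold higher (0.938 to 1.12), and BZIP60, a factor of the unfolded protein response, 645 reads with Al and 365 without, 1.86-fold higher (1.63 to 2.12), against 564 and 157 in wild type.

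Cell division genes were not called in either direction. None of 16 cell cycle loci and none of 8 DNA replication loci passed the rule, with median log2 ratios of 0.44 and 0.38, against -0.03 and -0.26 in wild type. CYCB1;1, a cyclin of dividing cells, had 23 reads with Al and 16 without, 1.51-fold higher (0.765 to 3.06), against 23 and 45 in wild type, and CDKB2;1 83 reads with Al and 64 without, 1.36-fold higher (0.973 to 1.92). At this depth the interval of CYCB1;1 still holds 2-fold, so its counts do not exclude a difference of that size. PLT1 and PLT2, stem cell factors of the root tip, had 41 reads with Al and 70 without, and 20 reads with Al and 30 without, 1.62-fold lower (1.09 to 2.45) and 1.43-fold lower (0.783 to 2.65), against 33 and 55, and 6 and 41 in wild type. Tubulins had 2 lower (16.7%, against 11.7% over all loci) and none higher of 12. TUB5 had 146 reads with Al and 456 without, 2.97-fold lower (2.46 to 3.6), and TUB4 815 reads with Al and 1594 without, 1.86-fold lower (1.71 to 2.03). None of 6 clock loci passed the rule, and TOC1 had 1111 reads with Al and 999 without, 1.17-fold higher (1.07 to 1.28).

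**Figure D5:**
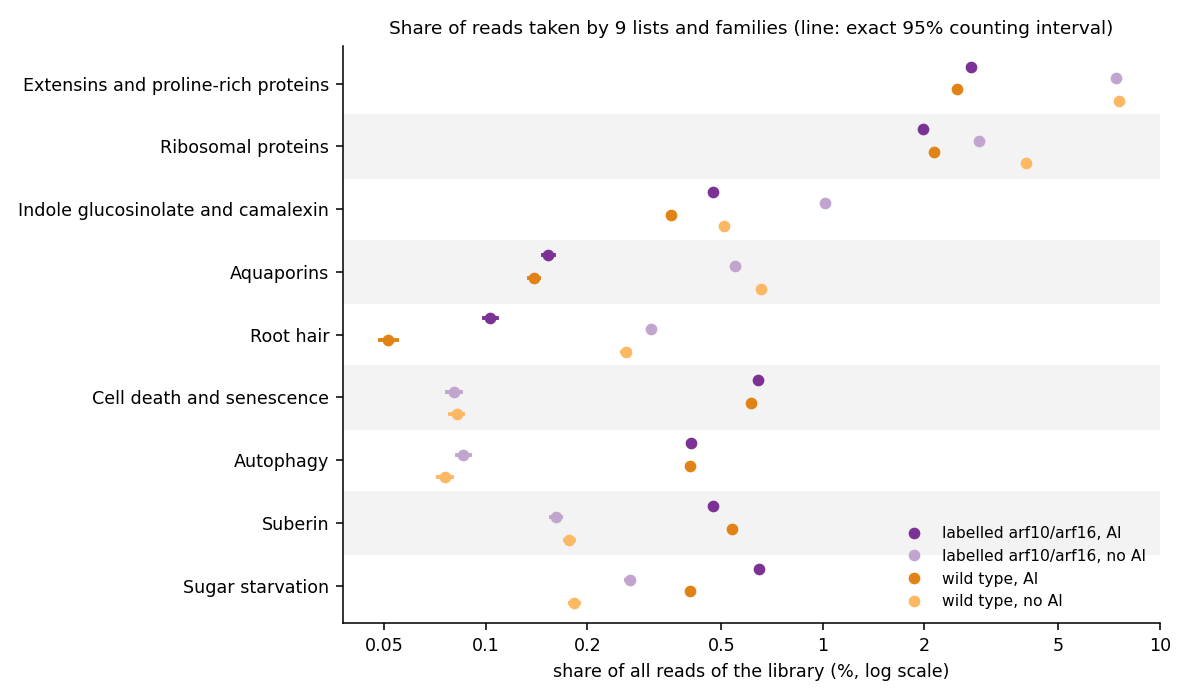
Points give the share of all reads (percent, log scale) taken by 9 lists and families in the 4 libraries, from top to bottom in each band the line labelled arf10/arf16 with and without Al and wild type with and without Al, and lines the exact 95% counting interval. Extensins, ribosomal proteins, aquaporins and root hair loci hold less of the reads with Al than without in both genotypes, and cell death, autophagy, suberin and sugar starvation loci hold more. In the labelled line DIN2 held 7169 of the 13473 sugar starvation reads with Al and 107 of 5862 without. CEP2 held 8976 of the 13367 cell death reads with Al and 730 of 1760 without.

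The wild-type pair shares no library with the labelled pair, and 12657 loci were compared in both. Of 1288 higher in the labelled line and 1730 higher in wild type, 1038 were higher in both, 80.6% of the labelled line's and 60.0% of wild type's. Of 1424 lower in the labelled line and 1814 lower in wild type, 1018 were lower in both, 71.5% and 56.1%. Only 4 loci were called in opposite directions, all lower with Al in the labelled line and higher in wild type. A locus called in 1 pair and not in the other is not shown to differ between them.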

How the data were processed

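Root RNA of 4 groups was sequenced, 1 library each. The authors deposited raw read counts per transcript model, and RPKM values (reads scaled to model length and library total), per the file headers and values. No source used here gives the aligner, counter, genome build or use of strand, so overlapping and antisense loci cannot be told apart. Empty cells (15308) were read as 0, and 25092 models were summed to 22284 loci, of which 22138 matched RefSeq TAIR10.1 by locus ID and 9053 had a symbol.

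Counts were divided by the library total. Loci with at least 20 reads over the pair were compared by ratio, with an exact Clopper-Pearson interval (Python 3.11.15, numpy 2.4.6, pandas 2.3.3, SciPy 1.17.1). A locus at 0 was set to a floor of 3 counts. With 1 library a group there are 0 residual degrees of freedom, so no test, p-value or standard error is given.

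The 39 process lists, 629 loci, were written by hand and the 28 families taken from RefSeq product names. Members and lists were chosen with earlier results of these data known, so their counts are descriptions. Named loci were ARF10 and ARF16, the 12 highest and 12 lowest ratios with at least 100 reads, up to 4 called members in each direction and 3 not past the rule in each list with at least 50 reads, the 5 largest gains and losses of read share, and loci called in opposite directions. Other loci were named after their values were seen. Alternatives were TMM (edgeR 4.0.16) and DESeq2 1.42.0 size factors (R 4.3.3) as scalings only, totals without the 20 most read loci or without organelle loci, other filters and folds, a prior count of 2, the most read model per locus, and the deposited RPKM.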

Additional observations from a re-analysis of the deposited data

Results flagged for a closer look

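A set of 4 loci was called in opposite directions in the 2 pairs, and the difference between the pairs was not tested. AT1G17147, annotated as a VQ motif-containing protein, had 28 reads with Al and 84 without in the line labelled arf10/arf16, 2.85-fold lower (1.84 to 4.54), a log2 ratio of -1.51, and 25 and 5 reads in wild type, 4.89-fold higher. LTP5, a lipid transfer protein, had 42 reads with Al and 90 without, 2.04-fold lower (1.4 to 3.01), a log2 ratio of -1.03, and 26 and 11 reads in wild type, 2.31-fold higher. The peroxidase locus AT5G39580 had 55 reads with Al and 153 without, 2.64-fold lower (1.93 to 3.67), a log2 ratio of -1.40, and 26 and 12 reads in wild type, 2.12-fold higher. The bHLH locus AT5G56960 had 52 reads with Al and 143 without, 2.61-fold lower (1.89 to 3.66), a log2 ratio of -1.39, and 18 and 4 reads in wild type, 4.4-fold higher. In all 4 the labelled line without Al held the most reads and wild type without Al the fewest. LTP5 was no longer called in the labelled line with TMM or DESeq2 scaling or with a prior count of 2.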

How the results depend on the processing

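The counts of called loci stayed within 1.5 times of those reported under every scaling tried, without a filter, with a prior count of 2, with the most read model per locus and with the deposited RPKM. With at least 3-fold the labelled line had 720 loci higher and 709 lower, and wild type 1051 and 1036. With at least 100 reads over the pair they were 794 higher and 703 lower in the labelled line and 1080 and 939 in wild type. Higher loci made up 46.8% of those called in the labelled line, and 44.4% to 53.0% under the alternatives. Of 477 named loci none went from called higher to called lower or the reverse. With TMM factors 464 and with DESeq2 factors 465 stayed on the same side of the rule, the lowest 2 of the 7 alternatives run on them. Ratios close to 1 can change side of 1 under another scaling. Of 63 list medians 62 stayed close under TMM and under DESeq2 factors, and that of the ribosomal proteins in the labelled line was nearer to 0 with both, by the 0.07 that TMM factors shift all loci of that line or less. No paired analysis was possible because each group has 1 library, and for the same reason no replicate could be left out. Depth limits what can be said of loci with few reads, and 9217 loci were under the filter.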
